A study of Mus musculus with 8 samples.

Results

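The genes described here encode nuclear-encoded subunits, though not all of them, of respiratory complexes II, III and IV and of ATP synthase (complex V) of the mitochondrion. They were chosen by symbol, with no measured value used in the choice, though earlier results of these data were known. They are 36 of the 23284 genes in the table, of which 4 belong to complex II, 7 to complex III, 10 to complex IV and 15 to complex V. RNA sequencing was done on P19, a mouse embryonal carcinoma cell line grown in serum. One arm was transfected with siControl and the other with siUPF3A, directed at Upf3a, a factor of the nonsense-mediated decay pathway. Both arms were given actinomycin D, which blocks transcription, 24 h after transfection. Samples were taken at 0, 15, 105 and 225 min of the drug, so the design has 2 arms, 4 times and 8 conditions. All came from 1 line with no untransfected group, and only the 0 min conditions had no time in the drug. The labels list 2 cultures for each condition, which the authors combined into 1 value per gene and condition, in FPKM (sequenced fragments scaled for transcript length and for depth). There was therefore no replicate at any time, and n below counts times unless genes are named. The SE of an arm difference rests on how far the times disagree, and that of a slope on departures from the fitted line. Each SE also draws on the variance of all genes tested. The labels do not say whether the times came from the same transfection.

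Complex II (succinate dehydrogenase) oxidises succinate in the citric acid cycle and hands the electrons to ubiquinone. Complex III passes them from ubiquinol to cytochrome c, and complex IV (cytochrome c oxidase) from cytochrome c to oxygen. Complexes III and IV pump protons across the inner membrane, and the ATP synthase makes ATP from the flow of protons back through its c ring. Some central subunits of complexes III, IV and V are encoded by mitochondrial DNA and are not among the members. The nuclear subunits are made from genes scattered over many chromosomes, and the transcription factors NRF1, GABP (of the ETS family) and YY1 are known regulators of many of them.

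RefSeq promoter windows, running from 250 bases before to 50 bases after a gene's start on GRCm38.p6, matched 28 of the 36 members by symbol. The NRF1 core gcatgcgc, searched on both strands, was present in the windows of 6 of these 28 genes. Counted by window, 19.4% of the members' 31 windows held it, against 2.71% of all 32851 windows of the same length. The 6 matches are shown because they are a feature of the promoter DNA that the choice of members did not use. Capitals mark the matched bases, which extend to 10 bases where matches on the 2 strands overlap, and each sequence reads 5′ to 3′ on the strand of its gene.
Atp5g2 (chr15:102671070-102671099, minus strand): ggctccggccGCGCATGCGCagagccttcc
Atp5k (chr5:108434430-108434459, minus strand): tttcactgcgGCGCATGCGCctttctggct
Atp5l (chr9:44920964-44920992, minus strand): aaccaataacGCATGCGCatttcccccac
Cox6a1 (chr5:115349101-115349130, minus strand): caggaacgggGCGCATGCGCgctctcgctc
Sdhb (chr4:140961206-140961235, plus strand): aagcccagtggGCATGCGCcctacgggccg
Uqcrc1 (chr9:108936668-108936697, plus strand): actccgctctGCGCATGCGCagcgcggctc
Atp5g2, Atp5k, Cox6a1 and Uqcrc1 carry the palindrome, which matches on both strands, whereas Atp5l and Sdhb carry the 8 bases once. The match in Uqcrc1 lies after the RefSeq start of the gene and the other 5 lie before it. The GENCODE genes of Sdhb, Atp5g2 and Atp5k start further upstream, at bases 140961203, 102672352 and 108434448. For these genes the placement holds for the RefSeq starts alone. The ETS core ccggaag was in the windows of 11 of the 28 genes (35.5% of the members' windows, 8.86% of all windows) and the YY1 core aagatggc in those of 3 (9.68% and 2.75%). These are matches of letters, and factor binding was not measured.

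The cells matched their label by markers. Of 10 pluripotent cell markers 9 (all but Zfp42) had a mean FPKM of 1 or more. The summed FPKM of the 10 was 2104 to 3482 over the control conditions and 2577 to 4315 over the knockdown conditions. Single genes made up most of the pluripotent and neural sums: at 0 min in the control arm Pou5f1 was at 1490 and the neural marker Tubb3 at 46.4. Nanog was at 53.4 there, near Tubb3. Summed neural markers stayed between 42.8 and 66.5, muscle markers between 8.96 and 17.0 with Tnnt2 below 0.1, fibroblast markers between 8.40 and 15.2, and endoderm markers between 0.871 and 4.32 with Afp below 0.1. Upf3a was lower in the knockdown arm by a mean log2 ratio of -1.42 ± 0.17 (SD, n = 4 times), with the authors' limits apart at 4 of 4 times. Total FPKM per condition ran from 537350 to 923333, with the highest totals at 225 min in both arms, and the read depth is unknown.

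All 36 members were abundant. At 0 min in the control arm their FPKM ran from 62.7 for Uqcrc2 to 1043 for Atp5b with a median of 315, while the median of the 11452 tested genes (mean FPKM of at least 1) was 11.5. FPKM is scaled for length, so levels can be set side by side between genes. Medians in that condition were 90.1 for complex II, 193 for complex III, 349 for complex IV and 406 for complex V. There the ranges of complex II (80.3 to 191) and complex V (206 to 1043) did not overlap. In the knockdown arm they overlapped at 0 min, with complex II up to 179 and complex V from 166, and also at 15 and 105 min. The members together held 2.18% of all FPKM in the control arm and 2.16% in the knockdown arm at 0 min. Averaged over the 8 conditions, the highest were Atp5b (the catalytic beta subunit of F1) at 1329, Atp5k (the small membrane subunit e) at 1091, Cox8a (a small membrane subunit of complex IV) at 934, Atp5g2 at 911 and Cox4i1 at 745. The lowest were Uqcrc2 (core protein 2 of complex III) at 79.1, Sdha (the flavoprotein that oxidises succinate) at 91.6, Sdhc at 102, Uqcrfs1 (the Rieske iron-sulphur protein) at 103 and Sdhb at 117. Sdha, Sdhb, Sdhc and Uqcrfs1 lay within 30 FPKM of one another, less than their own spread over the times in Sdhb and Sdhc (SD 32.5 and 30.5 in the control arm, n = 4 times).

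The c ring of ATP synthase is a ring of identical small proteins, and Atp5g1, Atp5g2 and Atp5g3 encode the same mature c subunit with different import sequences. At 0 min in the control arm Atp5g2 gave 42.8% of their summed FPKM, Atp5g3 32.0% and Atp5g1 25.2%. At 225 min the shares were 41.7%, 31.5% and 26.8% in the control arm and 42.9%, 31.6% and 25.5% in the knockdown arm. The order Atp5g2, Atp5g3, Atp5g1 was the same in all 8 conditions. Each of these shares carries the limit that related genes and processed copies can exchange reads, which the table does not resolve.

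After transcription was blocked, the members became a larger part of the measured RNA in both arms. All 36 had a higher FPKM at 225 min than at 0 min, by a median of 1.76-fold in the control arm (1.06-fold to 3.17-fold) and 2.05-fold in the knockdown arm (1.53-fold to 3.31-fold), where the median of all tested genes was 1.02-fold and 1.04-fold (FPKM + 1). Total FPKM rose too from 0 to 225 min, from 562848 to 880304 in the control arm and from 537437 to 923333 in the knockdown arm. The members' share of it rose less than their FPKM, from 2.18% to 2.66% and from 2.16% to 2.77%. FPKM has no outside standard, so a slope over time is relative to other genes, here to the median gene and not to the total. A value above 0 can belong to an mRNA that falls more slowly than the median gene. The slope in both arms was fitted with limma on log2(FPKM + 1) over all 8 conditions, and every member was called above 0 at a Benjamini-Hochberg adjusted p below 0.05 (36 of 36). Of all genes tested, 42.7% were called above 0 and 38.6% below 0. The members' median slope was 0.25 log2 units per hour, against 0.01 for all genes tested, and 30 of the 36 members lay in the tenth of tested genes with the highest slopes.

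**Figure D1:**
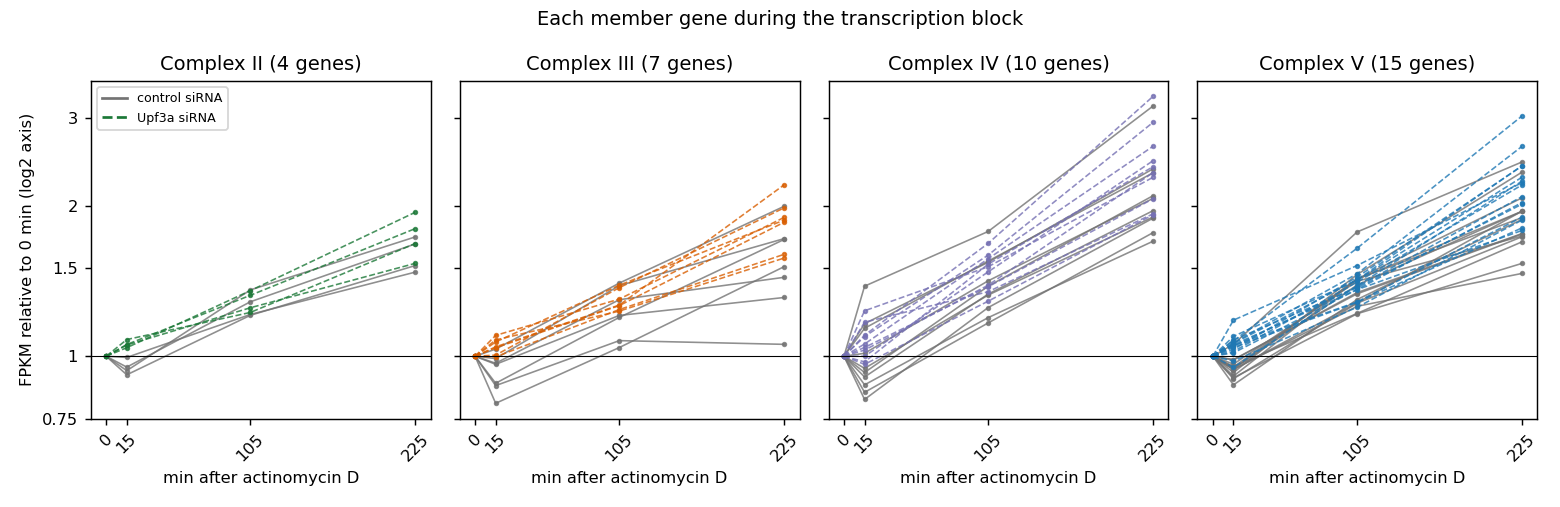
FPKM of each member relative to its value at 0 min (log2 axis) against min after actinomycin D, 1 panel per complex; solid grey lines are the control siRNA arm, dashed coloured lines the Upf3a siRNA arm, and each point is 1 condition. At 225 min every line ends above 1, with fold changes from 1.06 to 3.17 in the control arm and from 1.53 to 3.31 in the knockdown arm.

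The direction of this movement depends on how the conditions are scaled. With each condition scaled to the same total (TPM), 24 members were called above 0 and 3 below, with a median slope of 0.06. Scaled to 75 cytosolic ribosomal protein genes, 5 were above and 17 below, with a median of -0.04. These scalings shifted the median slope of all tested genes to -0.16 and -0.24 and left 6.07% and 0.371% of all calls above 0, against 52.5% for the deposited FPKM. Relative to the median of all tested genes, the members' median slope was 0.24 with the deposited FPKM, 0.22 with TPM and 0.19 with the ribosomal protein scaling. Quantile normalization left 0.03 of that distance, with 22 members above 0 and 1 below.

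The median slope was highest in complex IV and lowest in complexes II and III. The medians were 0.21 for complex II, 0.22 for complex III, 0.32 for complex IV and 0.27 for complex V. Median transcript lengths had the reverse order, at 2066, 1520, 631.5 and 838 bases, and the part of length in the order of slopes was not tested. Cox8a led with 0.43 ± 0.03 log2 units per hour (± SE, limma adjusted p = 3.4e-06). Its FPKM was 476, 657, 846 and 1507 at 0, 15, 105 and 225 min in the control arm and 562, 619, 945 and 1861 in the knockdown arm. Each 225 min value was above every earlier value of either arm. The next value was that of Atp5d, the delta subunit of the F1 stalk, at 0.39 ± 0.02 (limma adjusted p = 2.9e-06), with 219, 232, 388 and 536 FPKM in the control arm and 239, 256, 393 and 722.5 in the knockdown arm. Atp5d is the member measured least surely: its locus in the table spans 47 genes, and the authors' lower limit for it was 0 in all 8 conditions, with an upper limit of 551 at 0 min in the control arm. Cox6a1, a ubiquitous isoform of a complex IV subunit, had a slope of 0.36 ± 0.02 and ran 319, 363, 495 and 744 in the control arm and 315, 345, 501 and 924 in the knockdown arm. Atp5e, the epsilon subunit of F1, had 0.36 ± 0.02, with 416, 386, 607 and 972 in the control arm and 356, 378, 520 and 935 in the knockdown arm. In these 4 genes every 225 min value was the highest of its arm, and the arms overlapped in range.

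The slowest gain was in Uqcrc2, with 0.12 ± 0.03 log2 units per hour (limma adjusted p = 0.0071). In the control arm fitted alone its slope was 0.05 and was not called (limma adjusted p = 0.26), while in the knockdown arm alone it was 0.19 and was called. The Rieske protein gene Uqcrfs1 had a slope of 0.14 ± 0.02, and its FPKM was 90.8, 87.5, 110 and 119 in the control arm and 86.2, 92.9, 106 and 136 in the knockdown arm. Sdha had 0.16 ± 0.01, with 80.3, 79.9, 97.4 and 118 in the control arm and 73.7, 77.6, 92.1 and 113 in the knockdown arm. Sdhd, a membrane anchor of complex II, had 0.19 ± 0.02, with 191, 176, 231 and 291 in the control arm and 179, 193, 219 and 301 in the knockdown arm. These 4 had slopes below 0 with TPM and with the ribosomal protein scaling, so their values above 0 belong to the deposited scaling and to a comparison with the median gene. Of the c subunit genes, Atp5g1 had a slope of 0.30 ± 0.02, Atp5g2 of 0.27 ± 0.02 and Atp5g3 of 0.26 ± 0.02. Under the ribosomal protein scaling the values of all 3 were below 0, and of these only that of Atp5g3 was called (limma adjusted p = 0.020).

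The authors' limits for 225 min lay above those for 0 min in 21 members in the control arm, 29 in the knockdown arm and 20 in both. Over all genes tested the share in both arms was 2.97%. In the control arm none of the 4 complex II genes passed this comparison of limits, nor did Uqcrfs1, Cyc1, Uqcrc2, Uqcrb or Uqcrh of complex III. Among complex IV genes Cox7b alone did not pass in the control arm, and all 10 passed in the knockdown arm. The slopes of the 36 members in the control arm and in the knockdown arm went together (Pearson r = 0.87, Spearman rho = 0.86, n = 36 genes). Genes are not independent replicates, and this is a description with no test.

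The gain was not spread evenly over the times. At 15 min the members' median was 0.944 of the 0 min level in the control arm, where 6 of 36 were above 0 min, and 1.05 in the knockdown arm, where 30 of 36 were above. At 105 min all 36 were above their 0 min level in both arms, by medians of 1.33-fold and 1.37-fold. The summed FPKM of the members was 12245, 11826, 16570 and 23407 in the control arm and 11624, 12236, 16311 and 25547 in the knockdown arm. As a share of all FPKM this was 2.18%, 2.20%, 2.41% and 2.66% in the control arm and 2.16%, 2.23%, 2.46% and 2.77% in the knockdown arm.

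Short transcripts set the members apart from most genes. The annotated transcript of a member had a median length of 852 bases (371 for Atp5k to 4715 for Atp5g1), against 2949 for the tested genes with a match in GENCODE, and 4.95% of those genes had a transcript that short or shorter. The median coding length was 434 bases against 1380, and the median 3′ UTR 180 bases against 999. GC content was 50.3% against 50.6%. Slopes were lower in longer transcripts, both among the members (Spearman rho = -0.44, n = 36 genes) and over all 11340 matched genes (rho = -0.40). The members' median slope was above the median of all tested genes in each length class they filled. Up to 1000 bases it was 0.29 for 21 members and 0.20 for 829 genes, from 1000 to 2000 bases 0.23 for 11 members and 0.10 for 2404 genes, and from 2000 to 5000 bases 0.21 for 4 members and -0.0026 for 5992 genes. These classes hold few members, and the genes in them share libraries and scaling. On chromosome 11 the GENCODE genes of Atp5g1 (from base 96068852) and Uqcrq (from 53427922) reach outside the authors' loci (from 96072793 and 53428948). Their lengths here may thus exceed those of the transcripts measured, and Atp5g1 is 1 of the 4 members in the longest class. With the trends in length and GC content removed from each condition, an alternative chosen after seeing the data, 32 members were called above 0 with a median slope of 0.11, against 0.02 for all genes. The part of library preparation in the relation to length was not tested.

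**Figure D2:**
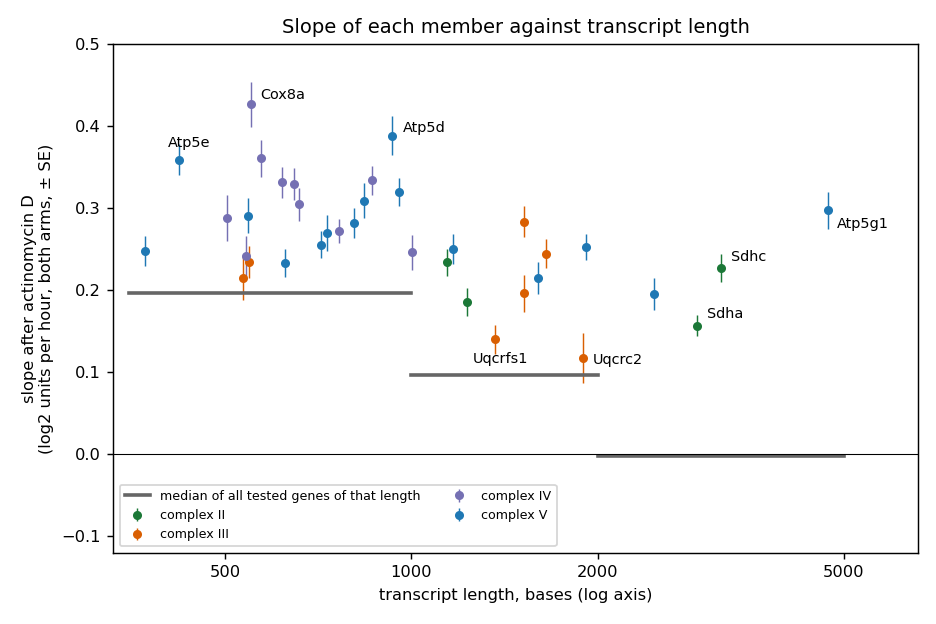
Slope after actinomycin D (log2 units per hour, both arms, ± SE) of each member against its transcript length in bases (log axis), coloured by complex; grey bars are medians of all tested genes up to 1000, from 1000 to 2000 and from 2000 to 5000 bases. All 36 members lie above 0, from 0.12 for Uqcrc2 to 0.43 for Cox8a, and the grey bars step down from 0.20 to 0.10 and -0.0026. Lengths are from GENCODE, and those of Atp5g1 and Uqcrq may exceed the transcripts measured.

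Between the arms most members differed little. With time as a factor, limma called 2 of 36 higher in the knockdown arm (Uqcrc2 and Cyc1) and 1 lower (Atp5f1), and 33 were not called. Among all genes tested, 26.1% were called higher in the knockdown arm and 22.3% lower, so the members had fewer calls than the table as a whole. At an unadjusted p below 0.05 there were 6 of the 36 members and 6381 of the 11452 genes tested, again a lower share among the members. The members' median log2 difference was 0.01 and that of all genes 0.00461. The balance of these few calls depends on the scaling: 8 members were called higher and 0 lower with the ribosomal protein scaling, 2 higher and 5 lower with median-of-ratios scaling, and 2 higher and 7 lower with quantile normalization. The share of all genes' calls that were higher was 53.9% with the deposited FPKM and 75.2%, 46.4% and 46.5% with these scalings.

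Both members called higher belong to complex III. Uqcrc2 encodes core protein 2, which with Uqcrc1 forms the large matrix part of the complex. It lies at chr7:120635176-120659524 on the plus strand of GRCm38. Its FPKM was 62.7, 54.8, 67.4 and 66.3 in the control arm and 78.9, 78.7, 97.8 and 126 in the knockdown arm at 0, 15, 105 and 225 min. Every knockdown value was above every control value. The log2 difference was 0.57 ± 0.09 (± SE, n = 4 times, limma adjusted p = 0.0019), which is 1.49-fold, and it was called under 14 of the 15 alternatives, the exception being the fit without time as a factor. The authors' limits were apart only at 225 min, where they were 47.9 to 84.6 in the control arm and 92.6 to 160 in the knockdown arm. No other member had limits apart at any time, and none had them apart at all 4 times. Of all genes tested, 0.288% had limits apart at all 4 times with the knockdown arm higher. Exons of Uqcrc2 overlap Pdzd9 on the other strand, and the strand setting of the counting was not given in the sources used here. Pdzd9 ran from 0.288 to 0.532 FPKM in the control arm and from 0.588 to 0.775 in the knockdown arm.

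Cyc1 encodes cytochrome c1, the subunit that passes electrons to cytochrome c, and lies at chr15:76343523-76346260 on the plus strand. Its FPKM was 204, 197, 264 and 293 in the control arm and 227, 242, 315 and 425 in the knockdown arm. The knockdown value was higher at 4 of 4 times, and the ranges of the arms overlapped because both rose with time. The log2 difference was 0.31 ± 0.06 (limma adjusted p = 0.0069), which is 1.24-fold, and this call too was lost only in the fit without time as a factor. The partner core protein gene Uqcrc1 ran 130, 129, 180 and 224 in the control arm and 128, 129, 176 and 254 in the knockdown arm, a difference of 0.03 ± 0.05 that was not called. Uqcrfs1 (0.04), Uqcrq (0.02) and Uqcrh (-0.07) were not called either, nor was Uqcrb at 0.13 ± 0.07. The calls in complex III thus concerned 2 of its 7 genes among the members.

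**Figure D3:**
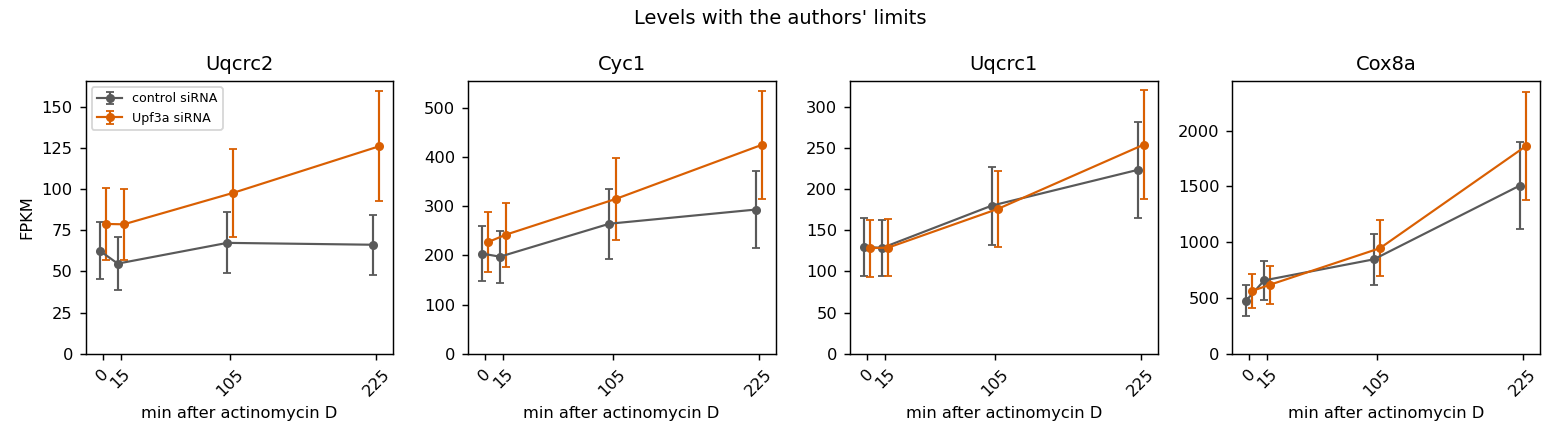
FPKM of Uqcrc2, Cyc1, Uqcrc1 and Cox8a against min after actinomycin D in the control siRNA arm (grey) and the Upf3a siRNA arm (orange); each point is 1 condition and bars are the authors' lower and upper limits. Only for Uqcrc2 at 225 min do the bars of the arms separate (upper limit 84.6 in control, lower limit 92.6 in knockdown), and the Uqcrc1 and Cox8a bars overlap at every time.

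Atp5f1, the b subunit of the stalk that holds the ATP synthase head in place, was the member called lower. Its FPKM was 208, 189, 253 and 320 in the control arm and 166, 174, 213 and 315 in the knockdown arm, so that the arms were 0.33 log2 units apart at 0 min and 0.02 at 225 min. The difference was -0.18 ± 0.06 (limma adjusted p = 0.039). This call ended with a pseudocount of 0.1, without the filter on low values, with the ribosomal protein scaling, in the fit without time as a factor, and without the 0, the 15 or the 105 min conditions. Atp5f1 shares its locus in the table with Wdr77, whose FPKM averaged 73.9 in each arm. The other stalk genes were not called: Atp5h (subunit d) had -0.10 ± 0.04, Atp5o (which joins the stalk to the head) 0.01 and Atp5j (coupling factor 6) 0.01.

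The remaining members with the largest differences were not called. Atp5d had 0.18 ± 0.07 (limma adjusted p = 0.065) and Cox8a 0.15 ± 0.07 (adjusted p = 0.094). Atp5e had -0.13 ± 0.05 (limma adjusted p = 0.065) and Cox4i1, a regulatory subunit of complex IV, -0.11 ± 0.04 (adjusted p = 0.073). Atp5d had the higher value in the knockdown arm at 4 of 4 times, and Atp5e and Cox4i1 the lower value at 4 of 4. Cox4i1 ran 597, 564, 791 and 1134 in the control arm and 523, 545, 721 and 1081 in the knockdown arm. The c subunit genes differed by -0.01 ± 0.06 (Atp5g1), 0.06 ± 0.06 (Atp5g2) and 0.11 ± 0.05 (Atp5g3), none of them called. All 4 complex II genes lay within 0.08 log2 units of no difference. In all, the ratio was above 0 at all 4 times in 4 members (Cyc1, Uqcrc2, Atp5d and Atp5g3) and below 0 at all 4 in 5 (Sdha, Cox4i1, Atp5e, Atp5f1 and Atp5h).

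**Figure D4:**
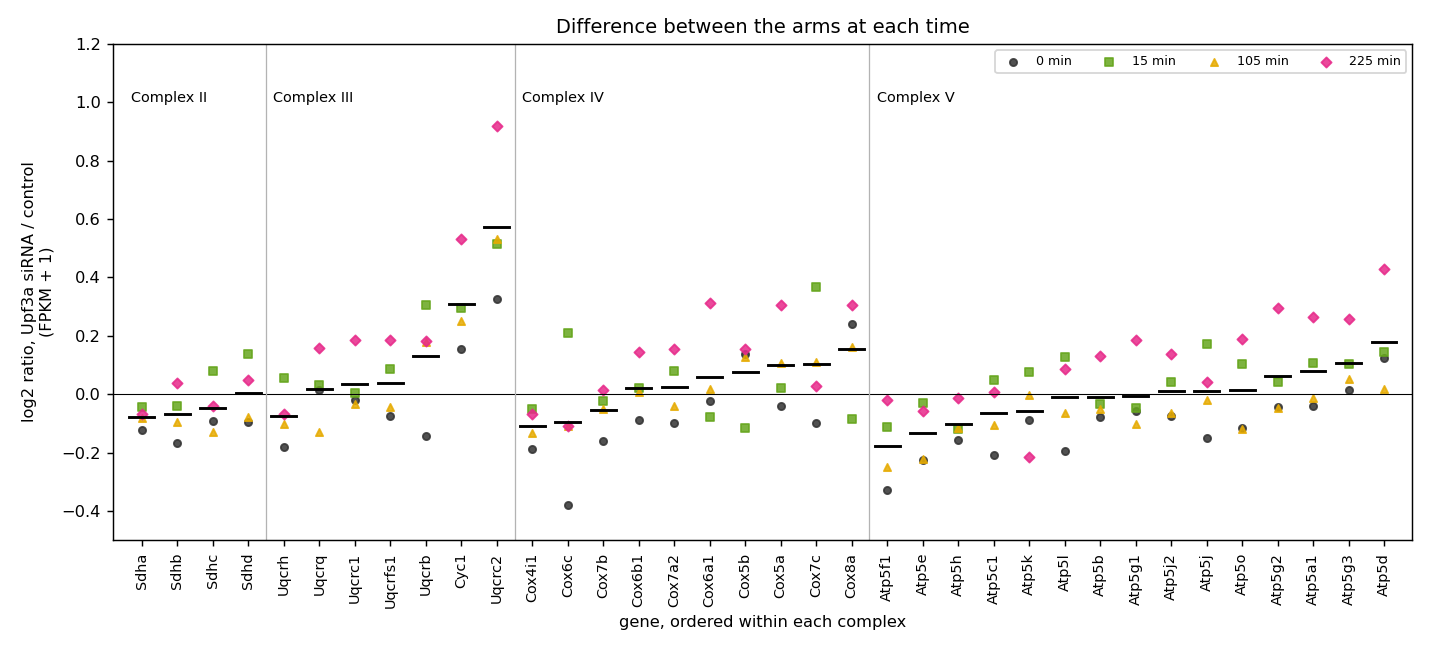
Log2 ratio of knockdown to control (FPKM + 1) for each of the 36 members at 0, 15, 105 and 225 min (symbols), grouped by complex, with the mean over the 4 times as a black bar. Most bars lie near 0, Uqcrc2 (0.57) and Cyc1 (0.31) stand highest, and the 225 min symbols lie above 0 in 27 of 36 genes while the 0 min symbols do so in 7.

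The sign of the ratio moved with the time across the whole group. The members' median log2 ratio of knockdown to control was -0.09 at 0 min, 0.05 at 15 min, -0.05 at 105 min and 0.14 at 225 min, and the ratio was above 0 in 7, 24, 11 and 27 of the 36 genes. Over all genes tested the medians at those times were -0.0083, 0.02, 0.0062 and 0.0095. The 37 genes listed as complex I subunits, measured in the same libraries, had medians of -0.06, 0.06, -0.05 and 0.13. Each time is 1 library pool per arm, so a shift of 1 pool and a change at that time cannot be told apart. In bulk RNA, more cells that carry an mRNA and more of it in each cell cannot be told apart either.

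The slope was steeper in the knockdown arm in 33 of 36 members, but none was called different between the arms by limma. Among all genes tested it was steeper in 6099 of 11452. It was steeper in 34 of the 37 genes listed as complex I subunits and in 13 of 13 citric acid cycle genes, all from the same libraries. Over all genes tested 0.00873% were called with a higher slope in the knockdown arm and 0% with a lower one, so this test made almost no calls anywhere. At an unadjusted p below 0.05 there were 4 members and 762 genes in all. The members' median difference was 0.04 log2 units per hour and that of all genes 0.0033. Without the 225 min conditions the median was 0.00286 and 21 members were positive, and without the 0 min conditions it was 0.0311 and 23 were positive. With the ribosomal protein scaling it was 0.00246, where the median of all genes tested was -0.029. Relative to the median of all genes tested, the members' median was 0.0363 with the deposited FPKM and 0.0315 with the ribosomal protein scaling. That distance was 0.0325 without the 0 min conditions and -0.00353 without the 225 min conditions.

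The 4 members with an unadjusted p below 0.05 were Uqcrc2 (0.14 ± 0.03, limma adjusted p = 0.65), Cox6a1 (0.10 ± 0.03, adjusted p = 0.69), Cox5a (0.09 ± 0.03, adjusted p = 0.69) and Cyc1 (0.08 ± 0.03, adjusted p = 0.72). Cox5a, a matrix-side subunit of complex IV, ran 246, 250, 349 and 510 FPKM in the control arm and 240, 254, 376 and 631 in the knockdown arm, so the arms parted by 0.31 log2 units at 225 min and by 0.04 at 0 min, in opposite directions. At the other end, the slope was lower in the knockdown arm for Atp5k (-0.05 ± 0.03), Cox7c (-0.02 ± 0.05) and Sdhc (-0.01 ± 0.03), and Uqcrh, the hinge protein of complex III, was at 0.00098. Atp5k ran 868, 816, 1110 and 1693 in the control arm and 816, 861, 1109 and 1457 in the knockdown arm, and its arms differed most at 225 min. Cox7c, a small membrane subunit of complex IV, ran 549, 465, 640 and 970 in the control arm and 513, 600, 691 and 989 in the knockdown arm, and differed most at 15 min. The c subunit genes had differences of 0.06 (Atp5g1), 0.08 (Atp5g2) and 0.05 (Atp5g3), each with a standard error of 0.03.

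Other genes of the pathway came from lists taken for their function. Complex I feeds electrons from NADH into the chain. Of 37 genes listed as its subunits, Ndufa4 among them, 7 were called higher in the knockdown arm and 0 lower. Neither share was above that of all genes tested (26.1% and 22.3%). Among those called were Ndufa5 at 0.55 ± 0.05 and Ndufab1 at 0.62 ± 0.09 (limma adjusted p = 2.0e-04 and 0.0012). After actinomycin D 36 of the 37 had a slope called above 0, and the median of 0.26 was close to that of complexes II to V. Of 32 tested assembly factors of complexes II to V, 7 were called higher and 5 lower between the arms, neither share above that of all genes tested. Over time 21 were called above 0 and 7 below 0. The shares of all genes tested with slopes called above and below 0 were 42.7% and 38.6%. The largest differences were in Taco1, a translational activator for a complex IV subunit, and Atpaf1, a chaperone for the F1 part of ATP synthase. Taco1 ran 5.17, 3.95, 3.74 and 2.98 in the control arm and 9.87, 10.2, 8.65 and 8.14 in the knockdown arm. Atpaf1 ran 5.15, 3.94, 4.60 and 4.02 in the control arm and 9.78, 9.75, 10.7 and 10.1 in the knockdown arm. For both genes the arms did not overlap, and the log2 differences were 1.05 ± 0.07 and 1.03 ± 0.06 (limma adjusted p = 7.7e-05 and 6.0e-05).

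Among 10 tested further subunits and isoforms of complexes III to V, 0 were called higher and 3 lower in the knockdown arm. Over all genes tested the shares were 26.1% and 22.3%. The 3 were led by Cox7a2l, a factor of respiratory supercomplexes, at -0.37 ± 0.05 and Atp5s, a coupling factor, at -0.30 ± 0.06. The muscle isoform Cox8b was listed at 0 in all 8 conditions, and Cox6a2 did not exceed 0.364 FPKM. Cytochrome c itself (Cycs) was not called between the arms (-0.04), and its haem lyase Hccs was called lower at -0.20 ± 0.04. Of 13 citric acid cycle genes 3 were called higher and 1 lower, neither share above that of all genes tested, with Fh1 (fumarate hydratase) at 0.42 ± 0.06 and Dld at 0.30 ± 0.05. A slope called above 0 was found in 12 of the 13, against 42.7% of all genes tested.

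Of 11 tested regulators of mitochondrial gene expression, 0 had a slope called above 0 and 8 had one called below 0, where the shares over all genes tested were 42.7% and 38.6%. With the deposited scaling the median was -0.11 log2 units per hour. The lowest was that of Pprc1, a coactivator related to PGC-1, with a slope of -0.46 ± 0.03: its FPKM was 28.8, 25.6, 16.3 and 8.98 in the control arm and 47.0, 47.8, 30.6 and 12.2 in the knockdown arm. The slopes of Nrf1 and Yy1 were -0.31 and -0.21. Gabpb1, the beta subunit of GABP, ran 11.5, 10.4, 8.66 and 5.15 in the control arm and 16.1, 16.4, 13.0 and 8.91 in the knockdown arm. Between the arms 5 regulators were called higher, with Pprc1 at 0.71 ± 0.08 and Gabpb1 at 0.57 ± 0.05, and 2 lower. The shares of all genes tested called between the arms were 26.1% higher and 22.3% lower. Pluripotent cell markers were called higher in 7 of 9 tested genes, against 26.1% of all genes tested, with a median of 0.43. The part of cell state in these differences was not tested.

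Atp5j and Gabpa, which encodes the DNA-binding subunit of GABP, lie on opposite strands with overlapping exons. Gabpa stayed between 18.6 and 21.3 FPKM with a slope of -0.02 that was not called (limma adjusted p = 0.19), while Atp5j ran 206, 194, 286 and 401 in the control arm and 186, 219, 282 and 413 in the knockdown arm with a slope of 0.28 ± 0.02. Besides Atp5j, Uqcrc2 and Atp5f1, exon overlap with a gene on the other strand was found for 8 members, and 31 of the 36 had a locus of their own in the table. Atp5d was not among these 31.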

How the data were processed

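RNA was sequenced from P19 cells in 8 conditions. Per the submitters' processing notes, the authors used TopHat2 and Cufflinks with mm10; versions and annotation are not given in the sources used here. The deposited FPKM values, with the authors' lower and upper limits (level not stated), are 1 per gene and condition from 2 combined cultures. FPKM is not a count, so depth is unknown and no interval for counting error can be given.

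Values were tested as log2(FPKM + 1) with limma 3.58.1 in R 4.3.3 (eBayes, no trend) for the 11452 genes whose mean FPKM was at least 1, a filter that all 36 members passed. The Benjamini-Hochberg threshold was 0.05 over all tested genes. The expression difference had time as a factor plus arm (3 residual degrees of freedom), the slope arm plus hours (5), and the slope difference the arm-by-hours term with time as a factor (2). Fits were tested on simulated data. Transcript features came from GENCODE vM21 on GRCm38 and promoters from RefSeq; Python 3.11.15 read the tables.

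Members and lists were chosen with earlier results of these data known. Named in each comparison are the 4 highest and 4 lowest effects, every called member where 12 or fewer were called, and the c subunit genes; for levels, the 5 highest and 5 lowest; from each list, up to 2 genes by moderated t. Genes outside this rule were named after their values were seen. Alternatives were other pseudocounts (0.1 and 5), filters, scalings, a trend in eBayes, single times left out and each arm alone; TPM scaling and removal of length and GC trends were added after seeing the data.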

Additional observations from a re-analysis of the deposited data

How the results depend on the processing

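The arms were compared within each time, with time as the block. Without that block, 0 members were called higher and 0 lower between the arms. Leaving out 1 time gave 2 to 3 members higher and 0 to 1 lower, a median slope difference of 0.00286 (without 225 min) to 0.0575, and turned the sign of some uncalled values: the arm difference of Atp5g1 (-0.0687 to 0.027, above 0 without 0, 15 or 105 min) and Atp5g2 (-0.0163 to 0.0986, below 0 without 225 min), and the slope difference of Uqcrh (-0.0318 to 0.0301, below 0 without 0 or 225 min), Cox7c (-0.0942 to 0.0315, above 0 without 15 or 225 min), Sdhc (-0.0615 to 0.0152, above 0 without 15 min), Atp5g1 (-0.0295 to 0.0706), Atp5g2 (-0.0227 to 0.0924) and Atp5k (-0.0851 to 0.0142), the last 3 turned without 225 min. None of these reversed values passed the threshold.

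Members called lower between the arms numbered 0 with a pseudocount of 0.1 or no filter, 4 with a pseudocount of 5, 5 with median-of-ratios scaling, 7 with quantile normalization, 2 with TPM, 0 with ribosomal protein scaling and 3 without length and GC trends; the last 2 called 8 and 4 higher. TPM and ribosomal protein scaling put the arm difference of Atp5g1 at 3.72e-05 and 0.0775.

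The median slope was 0.278 in the knockdown arm alone, 0.113 without length and GC trends, 0.0606 with quantile normalization (22 above 0, 1 below), 0.0566 with TPM (3 below) and -0.0439 with ribosomal protein scaling (5 above, 17 below). Among the members named for their slopes, reversed values were, with quantile normalization, Sdhd (-0.00302), Uqcrc2 (-0.00743) and Uqcrfs1 (-0.00437); with TPM, Sdha (-0.0388), Sdhd (-0.0117), Uqcrc2 (-0.0783) and Uqcrfs1 (-0.0557); and with ribosomal protein scaling, Atp5g1 (-0.000346), Atp5g2 (-0.0283), Atp5g3 (-0.0422), Sdha (-0.138), Sdhd (-0.112), Uqcrc2 (-0.177) and Uqcrfs1 (-0.155). Over all 36 members, slopes were above 0 in 30, 30 and 10 under these 3 scalings. The slope difference of Uqcrh was -0.00229 with median-of-ratios scaling, -0.0258 with quantile normalization, -0.0219 with TPM, -0.0362 with ribosomal protein scaling and -0.0212 without length and GC trends; the members' median difference with ribosomal protein scaling was 0.00246. The causes were not tested.

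With 1 value per condition and unknown depth, no spread between cultures enters any p-value, and a change shared by all mRNAs cannot be seen.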
